A study of Mus musculus with 374 samples.

Results

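Enzymes that remove superoxide and peroxides, and those that keep thioredoxin, glutathione and haem products in their reduced state, were followed through 5 populations of mouse blood cells. The 10 genes were Prdx1, Prdx2, Cat, Gpx1, Gpx4, Sod1, Blvrb, Txn1, Txnrd1 and Gclc. They were chosen by name, with earlier results of these data known but with no threshold on any value. All 10 were found among the 19829 mouse genes of the count table.

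The study sorted single cells from 1 female C57BL/6 mouse of 10 to 13 weeks into 1 plate and sequenced them with CEL-seq2, which primes at the 3′ end of transcripts with primers carrying a barcode for the well and a unique molecular identifier (UMI), so that molecules and not reads are counted. The labels name no treatment and no genetic change for any group. From bone marrow came 44 wells of B lymphocytes (B220+, low forward scatter), 96 of erythroblasts (Ter119+ CD44+, middle to high forward scatter), 96 of granulocytes (Mac1+ Gr1+) and 95 of progenitor/stem cells (Lin- Kit+ Sca1+). The thymus gave 43 wells of T lymphocytes (CD3+, low forward scatter). Each population filled its own rows of the plate and the T lymphocytes alone came from the thymus, so cell type, plate position and, for T lymphocytes, tissue cannot be told apart. All wells come from 1 animal, so a population is 1 sample. No test between populations was possible, and every interval below covers counting error only.

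Superoxide dismutase turns superoxide into hydrogen peroxide, which catalase, the peroxiredoxins and the glutathione peroxidases then remove. Peroxiredoxins are recharged by thioredoxin, which thioredoxin reductase renews with NADPH, whereas glutathione peroxidases draw on glutathione, whose synthesis is limited by glutamate-cysteine ligase. Red blood cells carry oxygen on iron-containing haemoglobin, which releases superoxide as it oxidises, and having lost their nucleus they must live on the enzymes made during maturation.

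Of the 10 members, 3 make selenoproteins, in which a TGA codon is read as selenocysteine instead of stop. They are shown because this residue sits in the catalytic centre of each enzyme. The coding bases around it are given 5′ to 3′, with the selenocysteine codon in capitals, from the GENCODE M21 transcripts (GRCm38). The windows lie in coding exons on the plus strand at chr9:108339439-108339465 (Gpx1), chr10:80054725-80054751 (Gpx4) and chr10:82896025-82896045 (Txnrd1).
Gpx1: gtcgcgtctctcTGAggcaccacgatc
Gpx4: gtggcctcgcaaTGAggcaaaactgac
Txnrd1: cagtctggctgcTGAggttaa
In the 1 transcript taken for each gene, the codon was number 47 of 201 in Gpx1, 129 of 253 in Gpx4 and 498 of 499 in Txnrd1. The numbers can differ in other transcripts of a gene, and which transcripts the blood cells used was not examined. In Txnrd1 only 1 further codon precedes the stop.

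Several members have near-identical copies elsewhere in the genome, which matters for what a count of them means. Annotated transcripts of other genes that aligned over at least 300 bases at 95% identity or more to the main transcript of a member were found for Prdx1, Prdx2, Gpx4, Sod1 and Txn1, and none was found for Cat, Gpx1, Blvrb, Txnrd1 or Gclc. For 3 members the last 30 coding bases lie in 1 coding exon and within the alignment, and they are set beside the same stretch of the copy, with differing bases in capitals. They lie at chr8:84974053-84974082 (Prdx2, plus strand), chr1:99790432-99790461 (Tdpx-ps1, minus strand), chr10:80056186-80056215 (Gpx4, plus), chr10:45875813-45875842 (Gpx4-ps2, plus), chr16:90226225-90226254 (Sod1, plus) and chr6:67206051-67206080 (Gm8566, plus).
Prdx2: GacagcaagGaatacttctccaaacacaac
Tdpx-ps1: TacagcaagTaatacttctccaaacacaac
Gpx4: gtgatagagaaggacctgccgtgctatctc
Gpx4-ps2: gtgatagagaaggacctgccgtgctatctc
Sod1: ttggcctgtggagtgattgggattgcGcag
Gm8566: ttggcctgtggagtgattgggattgcCcag
Over these 30 bases Prdx2 and its copy had 2 differences, Gpx4 and its copy 0, and Sod1 and its copy 1. The pseudogene Tdpx-ps1 held 351 UMIs over all wells, more than the 319 of Prdx2 itself. Gpx4-ps2 held 238 UMIs beside 254 of Gpx4, Txn-ps1 held 302 beside 790 of Txn1, and Gm8566 held 189 beside 754 of Sod1. The Prdx1 copies Gm7204 and Gm21399 held 17 and 8 UMIs beside 37 of Prdx1. The sources used here do not say how reads were shared out between a gene and its copy, so the levels of these 5 members are uncertain, and adding the UMIs of the copies moved no ratio of erythroblasts over another population beyond its counting interval.

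On the plate there were 466 to 20457 UMIs per erythroblast well on mouse genes, with a median of 6113.5. The medians were 7959 in progenitor/stem cells, 3880 in granulocytes, 3028.5 in B lymphocytes and 4347 in T lymphocytes. Levels are given as CPM, the UMIs of a gene summed over a population, divided by all its UMIs on mouse genes and scaled to 1000000, with 95% exact Poisson intervals. Each gene of the marker lists of the 5 populations was highest in its own population (6 of 6 for progenitor/stem cells, 7 of 7 for erythroblasts, 8 of 8 for granulocytes, 7 of 7 for B lymphocytes and 8 of 8 for T lymphocytes). Transcripts of haemoglobin (the alpha genes Hba-a1 and Hba-a2 and the beta genes Hbb-bt and Hbb-bs) were 23.5% of erythroblast UMIs and were also counted in the other populations, at 1.21% in progenitor/stem cells, 1.54% in granulocytes, 2.83% in B lymphocytes and 1.77% in T lymphocytes. The 6 B lymphocyte wells at the end of row B held 1620 of the 3842 haemoglobin UMIs of that population. They were grouped by position. Some wells left in also had much haemoglobin, such as B6 at 18.1% of its UMIs and A22 at 7.63%. B lymphocyte levels of Gpx1, Blvrb and Gclc are given below with and without the 6 wells at the end of row B. Without them Txn1 went from 177 to 128 CPM, Sod1 from 155 to 120 CPM and Prdx2 from 36.8 to 25.7 CPM. Prdx1, Gpx4, Txnrd1 and Gclc rose and the other members fell. No member ratio of erythroblasts over B lymphocytes moved beyond its counting interval. By their overall profile 7 wells stood nearest to another population than their own, and leaving out 8 wells, these included, moved no member ratio beyond its counting interval.

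Transcripts of the 10 members were together most abundant in erythroblasts. They reached 6817 CPM there (6620 to 7018), against 2032 CPM in granulocytes (1895 to 2176), 1738 CPM in progenitor/stem cells (1650 to 1830), 1311 CPM in B lymphocytes (1125 to 1518) and 793 CPM in T lymphocytes (675 to 927). Of the 4545 member UMIs of the erythroblasts, 2336 were Gpx1. By gene, 6 members were highest in erythroblasts (Prdx2, Gpx1, Gpx4, Sod1, Blvrb and Gclc). Txn1 was highest in granulocytes and Txnrd1 in progenitor/stem cells, while the leading level of Cat (B lymphocytes) and of Prdx1 (T lymphocytes) did not differ from the next beyond counting error.

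**Figure D1:**
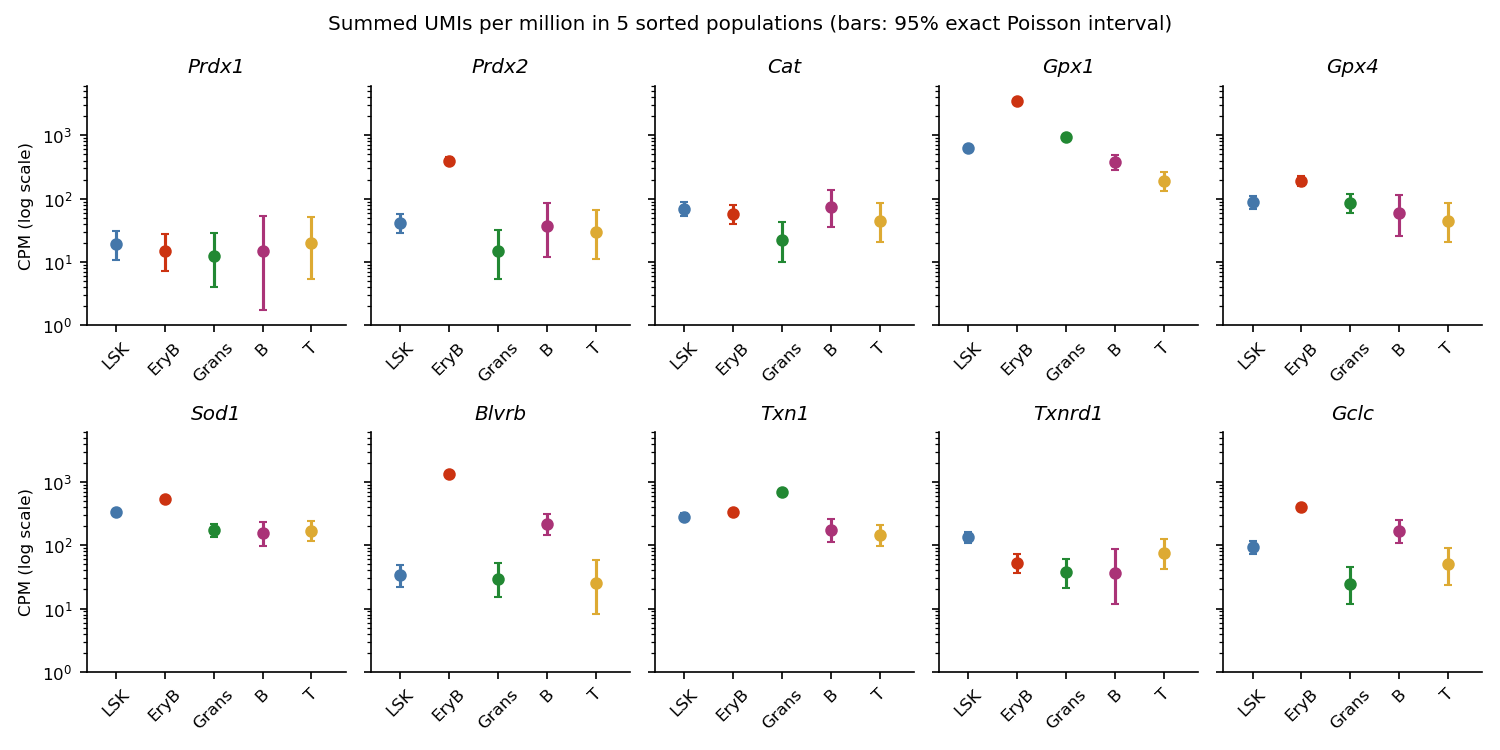
CPM of each member (log axis) in progenitor/stem cells (LSK), erythroblasts (EryB), granulocytes (Grans), B lymphocytes (B) and T lymphocytes (T). Points are CPM of summed UMIs and bars are 95% exact Poisson intervals. Gpx1 and Blvrb stand highest in erythroblasts, at 3504 and 1344 CPM, whereas Txn1 stands highest in granulocytes at 696 CPM.

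Among the peroxide-removing enzymes, Gpx1 (chr9:108338903-108340343, plus strand), the cytosolic glutathione peroxidase, stood at 3504 CPM in erythroblasts (3363 to 3649), 937 CPM in granulocytes (845 to 1036), 642 CPM in progenitor/stem cells (589 to 699), 376 CPM in B lymphocytes (280 to 494) and 190 CPM in T lymphocytes (134 to 260). Each step down this order of CPM was larger than counting error, the smallest being 1.46-fold from granulocytes to progenitor/stem cells (1.28 to 1.67). Per 1000 UMIs on the ERCC RNA added to every well, Gpx1 came to 9.06 UMIs in granulocytes and 12.1 in progenitor/stem cells. That step was thus turned round on that scale. A Gpx1 UMI was seen in 99.0% of erythroblast wells, with a median of 24 UMIs per well and up to 50, and in 98.9% of progenitor/stem cell wells with a median of 5. To set the populations at equal depth, each well was thinned to 1000 UMIs on mouse genes. It was then seen in 97.9% of 95 erythroblast wells, 55.3% of 94 granulocyte wells, 50.5% of 95 progenitor/stem cell wells, 32.6% of 43 B lymphocyte wells and 16.7% of 42 T lymphocyte wells. The share fell from erythroblasts to T lymphocytes as the CPM did.

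Gpx4 (chr10:80047166-80056439, plus strand), which reduces lipid peroxides within membranes, was at 192 CPM in erythroblasts (160 to 228), 88.6 CPM in progenitor/stem cells (69.6 to 111), 86.7 CPM in granulocytes (60.4 to 121), 58.9 CPM in B lymphocytes (25.4 to 116) and 44.9 CPM in T lymphocytes (20.5 to 85.3). Erythroblasts stood 2.17-fold above progenitor/stem cells (1.61 to 2.92), and the 4 lower levels did not differ from their neighbours beyond counting error. Its copy Gpx4-ps2 ran alongside, at 177, 82.7, 76.8, 73.6 and 49.9 CPM in the same order of populations.

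Prdx2 (chr8:84969587-84974834, plus strand), a peroxiredoxin known as one of the most abundant proteins of red cells, reached 400.5 CPM in erythroblasts (354 to 451). It was at 41.9 CPM in progenitor/stem cells (29.2 to 58.3), 36.8 CPM in B lymphocytes (12.0 to 85.9), 29.9 CPM in T lymphocytes (11.0 to 65.2) and 14.9 CPM in granulocytes (5.46 to 32.4). The erythroblast level was 9.55-fold that of progenitor/stem cells (6.70 to 14.0), and the other 4 levels did not differ from their neighbours. Progenitor/stem cells did stand 2.82-fold above granulocytes (1.17 to 8.20). Tdpx-ps1 held 311 of its 351 UMIs in erythroblasts, 34 in progenitor/stem cells and 0 in B lymphocytes, and with its UMIs added the ratio was 10.5-fold (8.16 to 13.7). The gene span of Prdx2 overlaps Junb and Rnaseh2a on the opposite strand, which together held 82 UMIs, and no source used here says whether the counting was by strand.

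Prdx1 (chr4:116685544-116700822, plus strand) had 37 UMIs in all, so little can be said of it. Its levels ran from 12.4 CPM in granulocytes (4.02 to 28.9) to 20.0 CPM in T lymphocytes (5.44 to 51.1), and none of the neighbouring levels differed beyond counting error. Cat (chr2:103453849-103485160, minus strand), which splits hydrogen peroxide without a partner, was at 73.6 CPM in B lymphocytes (35.3 to 135), 69.5 CPM in progenitor/stem cells (52.8 to 89.8), 57.0 CPM in erythroblasts (40.3 to 78.2), 44.9 CPM in T lymphocytes (20.5 to 85.3) and 22.3 CPM in granulocytes (10.2 to 42.3). Again no neighbours differed, although progenitor/stem cells stood 3.11-fold above granulocytes (1.53 to 7.15). Of the 38 erythroblast UMIs of Cat, 11 lay in 1 well, and the variance over erythroblast wells was 7.14 times that expected from counting.

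Sod1 (chr16:90220754-90226329, plus strand), the copper-zinc superoxide dismutase of the cytosol, was at 526 CPM in erythroblasts (473 to 585), 334 CPM in progenitor/stem cells (296 to 376), 171 CPM in granulocytes (133 to 216), 170 CPM in T lymphocytes (117 to 237) and 155 CPM in B lymphocytes (95.7 to 236). Erythroblasts stood above progenitor/stem cells (1.58-fold, 1.34 to 1.85), these above granulocytes (1.95-fold, 1.50 to 2.58), and the last 3 levels could not be separated. The span of Sod1 overlaps Scaf4 on the opposite strand, which held 132 UMIs.

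Gclc (chr9:77754535-77794485, plus strand), the catalytic subunit of glutamate-cysteine ligase, was at 396 CPM in erythroblasts (350 to 447). It was at 169 CPM in B lymphocytes (107 to 254), 93.4 CPM in progenitor/stem cells (73.9 to 117), 49.9 CPM in T lymphocytes (23.9 to 91.8) and 24.8 CPM in granulocytes (11.9 to 45.6). The erythroblast level was 2.34-fold that of B lymphocytes (1.53 to 3.75) and the B lymphocyte level 1.81-fold that of progenitor/stem cells (1.09 to 2.92). Per 1000 ERCC UMIs the second step was turned round, at 1.27 UMIs in B lymphocytes and 1.75 in progenitor/stem cells. Without the 6 wells at the end of row B, B lymphocytes held 20 of their 23 Gclc UMIs, at 171 CPM.

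Blvrb (chr7:27447978-27466144, plus strand), which reduces biliverdin and flavins with NADPH, had the widest range of the 10 members. It was at 1344 CPM in erythroblasts (1257 to 1435), 214 CPM in B lymphocytes (143 to 307), 33.5 CPM in progenitor/stem cells (22.3 to 48.5), 29.7 CPM in granulocytes (15.4 to 51.9) and 25.0 CPM in T lymphocytes (8.10 to 58.2). Erythroblasts exceeded B lymphocytes 6.29-fold (4.35 to 9.45) and B lymphocytes exceeded progenitor/stem cells 6.37-fold (3.66 to 11.1), and the lowest 3 did not differ. Of the 29 UMIs in B lymphocytes, 9 came from the 6 wells at the end of row B, and the level in the other 38 wells was 171 CPM (104 to 264). A Blvrb UMI was seen in 96.9% of erythroblast wells and in 12.5% of granulocyte wells.

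**Figure D2:**
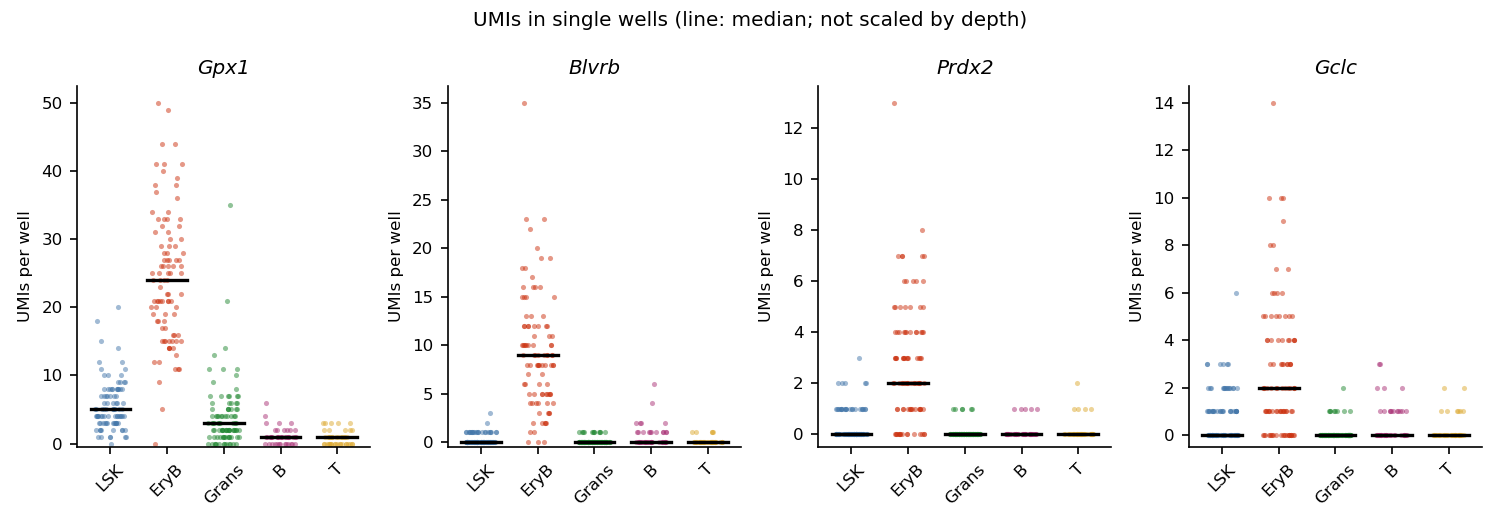
UMIs per well of Gpx1, Blvrb, Prdx2 and Gclc in each population, not scaled by depth, with the median as a line. For Gpx1 the median was 24 in erythroblasts and at most 5 elsewhere, and for Blvrb it was 9 in erythroblasts and 0 in every other population.

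The thioredoxin branch did not follow this order. Txn1 (chr4:57943373-57956411, minus strand), the cytosolic thioredoxin, was at 696 CPM in granulocytes (617 to 783), 330 CPM in erythroblasts (288 to 377), 283 CPM in progenitor/stem cells (248 to 321), 177 CPM in B lymphocytes (113 to 263) and 145 CPM in T lymphocytes (96.9 to 208). The granulocyte level was 2.11-fold that of erythroblasts (1.76 to 2.53), which in turn did not differ from progenitor/stem cells (1.17-fold, 0.967 to 1.41). Txn-ps1 was likewise highest in granulocytes, at 248 CPM against 127 CPM in erythroblasts. Per 1000 UMIs on the ERCC RNA added to every well, Txn1 came to 6.74 UMIs in granulocytes and 5.72 in erythroblasts, so the distance between them was smaller on that scale.

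Txnrd1 (chr10:82833951-82897712, plus strand), the cytosolic thioredoxin reductase, was at 133 CPM in progenitor/stem cells (109 to 160), 74.9 CPM in T lymphocytes (41.9 to 123), 52.5 CPM in erythroblasts (36.6 to 73.0), 37.2 CPM in granulocytes (20.8 to 61.3) and 36.8 CPM in B lymphocytes (12.0 to 85.9). Progenitor/stem cells stood 1.78-fold above T lymphocytes (1.03 to 3.28) and 2.53-fold above erythroblasts (1.72 to 3.82). The next levels could not be separated from one another. The gene overlaps Eid3 on its own strand and Gm38560 and Gm47073 on the other, which together held 9 UMIs.

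The second question was how far the members stood apart from genes in general. A gene was called when its CPM differed at least 2-fold between erythroblasts and another population, among genes with 50 UMIs or more in both populations together. This is a description of size, since no test was possible. The members were chosen with earlier results of these data known, so the shares of all genes are given for scale only. Against progenitor/stem cells, 5 of the 9 members with enough UMIs were at least 2-fold higher in erythroblasts (Prdx2, Gpx1, Gpx4, Blvrb and Gclc), where 14.8% of all 4792 genes were. Txnrd1 alone was at least 2-fold lower, where 40.9% of all genes were. The median log2 ratio of the members was 1.11 and that of all genes -0.73, and Prdx1 had too few UMIs.

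The comparison with progenitor/stem cells moved with the scaling. With TMM factors, which align the bulk of genes between samples, the median of all genes moved to 0.13, and 7 members were higher and 0 lower. With scran size factors, which do so well by well, it moved to 0.23, and 8 were higher and 0 lower. With 1 factor for a whole population, as in CPM or TMM, the place of a member among all genes is the same whatever the factor, which does not hold for the factors of single wells. On CPM Blvrb stood at the 99.7th percentile of all log2 ratios, Prdx2 at the 95.9th, Gpx1 at the 93.3rd, Gclc at the 92.2nd, Gpx4 at the 86.4th, Sod1 at the 81.4th, Txn1 at the 74.5th, Cat at the 63.2nd and Txnrd1 at the 32.4th. Txnrd1 remained lower in erythroblasts than in progenitor/stem cells under every scaling tried, from -1.34 on the log2 scale to -0.48 with TMM and -0.13 with scran factors, whereas Cat turned from -0.29 to 0.58 and 2.16. A single erythroblast well held 11 of the 38 Cat UMIs of that population, and scran gives each well its own factor. The part of that well in the value of 2.16, and in the scran count that includes Cat, was not tested.

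Against granulocytes, 6 of 8 members were at least 2-fold higher in erythroblasts (Prdx2, Gpx1, Gpx4, Sod1, Blvrb and Gclc), where 40.2% of all 3057 genes were. Prdx2 (26.9-fold, 12.2 to 74.0), Blvrb (45.2-fold, 25.7 to 87.8) and Gclc (16.0-fold, 8.55 to 33.7) differed most, and lay at the 98.8th, 99.8th and 97.0th percentile of all genes. Gpx1 (3.74-fold, 3.35 to 4.18) lay at the 79.0th. Only Txn1 was at least 2-fold lower, where 26.2% of all genes were. It was not past 2-fold with TMM factors, per ERCC UMI, or with the most abundant transcripts taken out of the total, and in each of these 0 members were lower. Prdx1 and Cat had too few UMIs.

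Against B lymphocytes, 6 of 7 members were higher (33.8% of all 2324 genes) and 0 were lower (16.3% of all genes). The 6 were Prdx2 at 10.9-fold (4.60 to 33.8), or 23.5-fold (10.0 to 72.8) with Tdpx-ps1 added, Gpx1 at 9.33-fold (7.07 to 12.6), Blvrb, Sod1 at 3.40-fold (2.19 to 5.57), Gpx4 at 3.26-fold (1.61 to 7.71) and Gclc. Against T lymphocytes, 7 of 8 were higher (28.8% of all 2609 genes), now with Txn1 at 2.28-fold (1.54 to 3.48), and 0 were lower (22.5% of all genes). Blvrb at 53.9-fold (23.0 to 166) and Gpx1 at 18.5-fold (13.4 to 26.2) lay at the 99.7th and 98.1st percentile. The 4 comparisons share the erythroblast wells, so their counts are not independent. With the UMIs of the copies added, the number of members called was the same in all 4 comparisons and both directions.

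**Figure D3:**
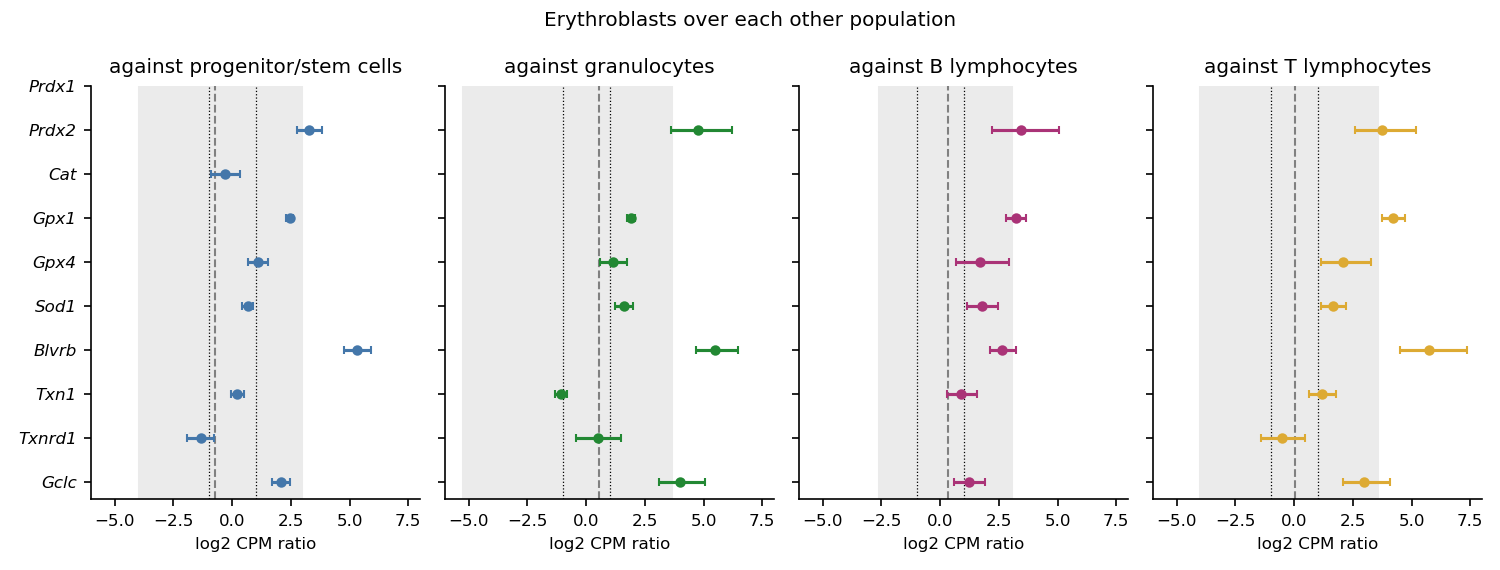
Log2 CPM ratio of erythroblasts over each other population for members with at least 50 UMIs in both together, with 95% exact conditional binomial intervals. The grey band spans the 5th to the 95th percentile of all genes tested, the dashed line is their median and dotted lines mark 2-fold. Blvrb and Prdx2 lie beyond the band in 3 and 4 panels, whereas Txnrd1 lies inside it wherever it is shown.

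The level of each member outside erythroblasts was set beside that of haemoglobin, as a percentage of the erythroblast level. Haemoglobin stood at 5.16% of its erythroblast CPM in progenitor/stem cells, 6.55% in granulocytes, 12.0% in B lymphocytes and 7.52% in T lymphocytes. Blvrb lay below this mark in 3 populations, at 2.50% in progenitor/stem cells, 2.21% in granulocytes and 1.86% in T lymphocytes, and its intervals there excluded the mark. The part of transcripts of other cells in the counts of any member was not tested. In B lymphocytes Blvrb stood at 15.9%, with an interval that includes the mark, and without the 6 wells at the end of row B its interval still included it. Prdx2 was at or below it in granulocytes (3.71%), B lymphocytes (9.19%) and T lymphocytes (7.48%) and above it in progenitor/stem cells (10.5%).

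Gpx1 was below the haemoglobin mark in T lymphocytes (5.41%). In B lymphocytes it stood at 10.7%, with an interval that included the mark at 421 CPM. Without the 6 wells the B lymphocyte level of 325 CPM (230 to 446) lay above the mark at 283 CPM, with an interval that included it. Gpx1 was above the mark in progenitor/stem cells (18.3%) and granulocytes (26.7%). Gclc was at it in granulocytes (6.26%), above it in progenitor/stem cells (23.6%) and B lymphocytes (42.8%), and at 12.6% in T lymphocytes, where its interval includes the mark. In B lymphocytes without the 6 wells at the end of row B the mark fell to 8.07%, and Gclc remained at 171 CPM where the mark stood for 32.0 CPM. Gpx4, Sod1, Cat, Txn1 and Txnrd1 lay above the mark in all 4 populations. Taking the haemoglobin-scaled erythroblast level off each population left the number of members called as it was, but for Txn1 joining those higher than in B lymphocytes. Txn1 did so too when the 6 wells were left out. The subtraction lowers only the other populations, so a ratio of erythroblasts over them could rise or stay but not fall. No member called higher could thus be lost by it.

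**Figure D4:**
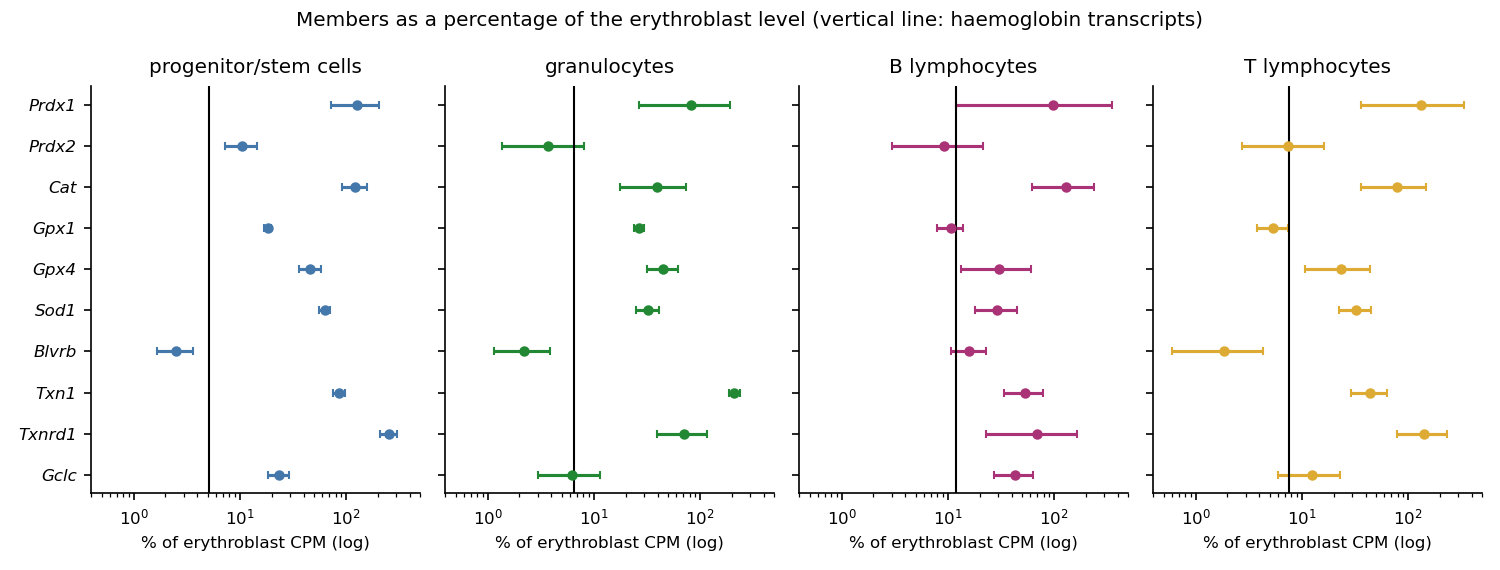
CPM of each member in 4 populations as a percentage of its erythroblast CPM (log axis), with 95% exact Poisson intervals of the population's count. The vertical line is the same percentage for haemoglobin, 5.16 to 12.0. Blvrb lies to the left of the line in all panels but that of B lymphocytes, and Txn1 and Txnrd1 lie far to its right.

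Within the erythroblasts, the index fluorescence recorded at sorting allowed wells to be ordered by surface Ter119 and CD44. Erythroid cells gain Ter119 and lose CD44 and size as they mature. The intervals in these splits cover counting error and not the spread between wells. Over all erythroblast wells the variance of haemoglobin was 525 times that expected from counting. For Gpx1 it was 3.71 times, for Sod1 2.08, for Gclc 1.93, for Prdx2 1.64, for Blvrb 1.51 and for Gpx4 0.842. The 48 wells above the Ter119 median had 2.04-fold the haemoglobin CPM of the 48 at or below it (2.02 to 2.06). Gpx1 was higher in them, at 4115 CPM against 3065 CPM (1.34-fold, 1.24 to 1.46). Sod1 was lower, at 323 CPM against 673 CPM (0.480-fold, 0.373 to 0.612), and so was Gclc, at 305 CPM against 461 CPM (0.661-fold, 0.504 to 0.860). Blvrb was at 1169 CPM against 1469 CPM (0.796-fold, 0.693 to 0.914).

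With haemoglobin left out of the total, Gpx1 rose to 1.69-fold (1.56 to 1.83) and Sod1 stayed lower at 0.603-fold (0.469 to 0.769), but the interval of Gclc (0.831-fold, 0.634 to 1.08) and of Blvrb (1.00-fold, 0.871 to 1.15) then included 1. Cat was 5.22-fold higher above the Ter119 median (2.34 to 13.2), on 30 against 8 UMIs. Without the well that held 11 of them the ratio was 3.35 (1.40 to 8.84). Prdx2 was at 1.05-fold (0.819 to 1.35) with haemoglobin in the total and at 1.32-fold (1.03 to 1.70) with it left out, and only the second interval excluded 1. The intervals of Gpx4 included 1 both with haemoglobin in the total (0.952-fold, 0.656 to 1.37) and without (1.20-fold, 0.825 to 1.73).

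Split by CD44 the differences in Gpx1 and Sod1 were turned round, as was that in haemoglobin (0.539-fold in the 48 wells above the median, 0.534 to 0.545). The intervals of Gclc (1.17-fold, 0.904 to 1.52) and Blvrb (1.08-fold, 0.940 to 1.24) included 1. They did so too with haemoglobin left out of the total, at 0.956-fold and 0.881-fold. Gpx1 was 0.806-fold (0.742 to 0.876) and Sod1 1.77-fold (1.39 to 2.26) in the wells with more CD44. Prdx2 was at 0.781-fold (0.609 to 1.002, which includes 1), and at 0.638-fold (0.498 to 0.819) with haemoglobin left out of the total. Cat was 0.336-fold (0.158 to 0.683), but 0.593-fold (0.257 to 1.36) without its highest well. By forward scatter, a measure of cell size, Sod1 was 1.93-fold higher in the 46 wells above the median than in the other 50 (1.53 to 2.45), while Gpx1 was at 0.955-fold (0.879 to 1.04), and at 0.844-fold (0.777 to 0.916) with haemoglobin left out of the total. Wells above the Ter119 median were also shallower, with a median of 5427 UMIs against 7324.5, and the part of depth in these differences was not tested.

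Across the 96 erythroblast wells, Gpx1 per UMI not on haemoglobin rose with the haemoglobin share of the well (Spearman's rho 0.84), and with haemoglobin in the total rho was 0.65. Sod1 went the other way (rho -0.42, and -0.57 with haemoglobin in the total). All other members lay between -0.21 and 0.29 with haemoglobin out of the total. The wells share 1 mouse and 1 plate. Haemoglobin share itself fell with depth (rho -0.66), as did Gpx1 per UMI not on haemoglobin (rho -0.53), so these are descriptions of 96 wells.

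**Figure D5:**
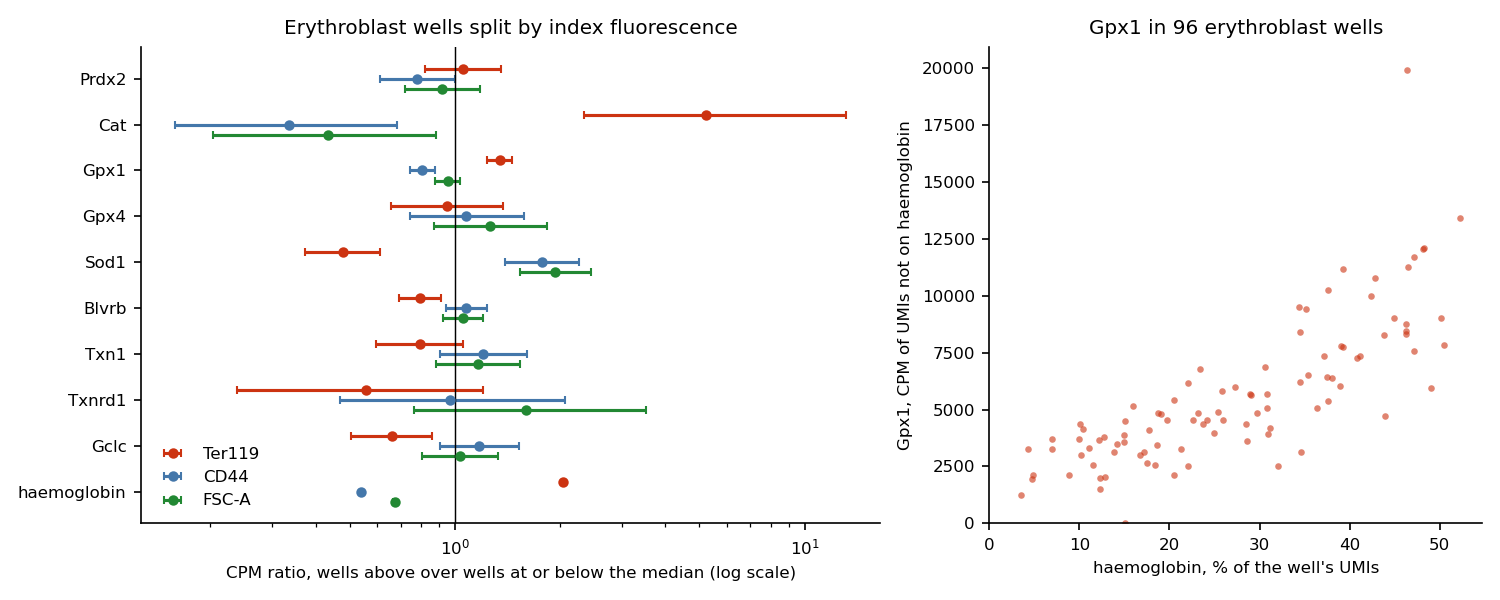
Left, CPM ratio (log axis) of erythroblast wells above the median of Ter119, CD44 or forward scatter over the rest, with 95% exact conditional binomial intervals; Prdx1 is left out for its low count. Right, Gpx1 as CPM of UMIs not on haemoglobin against the haemoglobin percentage of each of the 96 erythroblast wells. Gpx1 rises with haemoglobin (rho 0.84, both axes using the UMIs not on haemoglobin) and with Ter119 (1.34-fold), whereas Sod1 is lower above the Ter119 median (0.480-fold).

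To see whether the wider antioxidant system moved with the members, 70 further genes were listed in 7 roles. They too were chosen with earlier results of these data known, and 64 were in the table. Against progenitor/stem cells 32 had enough UMIs. Of these, 5 were at least 2-fold higher in erythroblasts (Prdx3, Txnrd2, Glrx5, Mgst3 and Mafk), which is close to the 14.8% of all genes, and 11 were lower, against 40.9% of all genes. Their median log2 ratio was -0.44, above the -0.73 of all genes. The split moved with the scaling, to 12 higher and 7 lower with TMM factors and to 13 and 7 with scran factors.

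In the peroxiredoxin and thioredoxin role, 3 of 9 genes were higher and 4 lower. Glrx5, a mitochondrial glutaredoxin needed to build iron-sulfur clusters, was at 774 CPM in erythroblasts and 88.6 CPM in progenitor/stem cells (8.73-fold, 6.83 to 11.3), and at 51.5 to 79.8 CPM elsewhere. Txnip, which binds and inhibits thioredoxin, was at the other end, at 67.5 CPM in erythroblasts and 562 CPM in progenitor/stem cells (0.120-fold, 0.0864 to 0.163). It was lowest in erythroblasts of all 5 populations. Prdx3 and Txnrd2, which act in mitochondria, were higher in erythroblasts than in each of the other populations, with at least 4.06-fold and 4.88-fold differences.

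Of the glutathione genes only 3 of 16 had enough UMIs. Mgst3, a membrane-bound glutathione transferase and peroxidase, was at 684 CPM in erythroblasts against 21.6 CPM in progenitor/stem cells (31.7-fold, 19.8 to 54.0), and at 4.99 to 22.1 CPM in the other 3 populations. Gstm1, a soluble glutathione transferase, was at 9.00 CPM against 107 CPM (0.0844-fold, 0.0302 to 0.191). In haem degradation, the only gene with enough UMIs was Hmox2, the constitutive haem oxygenase. Hmox2 was at 9.00 CPM in erythroblasts against 103 CPM in progenitor/stem cells (0.0874-fold, 0.0312 to 0.198). It was lowest in erythroblasts.

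Neither superoxide dismutation gene moved past 2-fold. Ccs, which loads copper into Sod1, was at 48.0 CPM against 31.1 CPM (1.54-fold, 0.890 to 2.69), and Sod2, the mitochondrial dismutase, at 63.0 CPM against 62.3 CPM (1.01-fold, 0.657 to 1.55). None of 4 NADPH genes was called. Taldo1, a pentose phosphate enzyme, was at 339 CPM against 195 CPM (1.74-fold, 1.41 to 2.14), and G6pdx, which opens that pathway, at 42.0 CPM against 70.7 CPM (0.594-fold, 0.365 to 0.947). Among 6 regulators, Mafk, a small Maf partner of NRF2 and NF-E2, was at 54.0 CPM against 24.0 CPM (2.25-fold, 1.27 to 4.11), and Nfe2l1, a transcription factor related to NRF2, at 25.5 CPM against 64.7 CPM (0.394-fold, 0.214 to 0.690).

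In the selenoprotein role, 0 of 7 were higher and 3 lower, where 14.8% and 40.9% of all genes were. Sephs2, which makes the selenium donor of selenocysteine, had the highest ratio, at 31.5 CPM against 40.7 CPM (0.773-fold, 0.427 to 1.37). Selenos, a selenoprotein of the endoplasmic reticulum, had the lowest, at 3.00 CPM against 58.7 CPM (0.0511-fold, 0.00602 to 0.195, on 2 UMIs). Txnrd2, a selenoprotein listed under the thioredoxin role, was at 97.5 CPM against 16.8 CPM (5.81-fold, 3.23 to 11.2).

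Against granulocytes the wider list stood mostly lower in erythroblasts, with 13 of 25 at least 2-fold lower (26.2% of all genes) and 7 higher (40.2% of all genes), and a median of -1.31 where that of all genes was 0.55. The lower genes included 4 of the pentose phosphate pathway, which supplies NADPH, of which Tkt and Taldo1 were not past 2-fold per ERCC UMI. Granulocytes exceeded erythroblasts 45.4-fold in Pgd (24.3 to 95.8), 10.2-fold in G6pdx (6.78 to 15.7), 3.13-fold in Tkt (2.60 to 3.77) and 2.60-fold in Taldo1 (2.19 to 3.08). Per 1000 ERCC UMIs, Tkt came to 8.03 UMIs in granulocytes and 4.60 in erythroblasts, and Taldo1 to 8.51 and 5.88. They also exceeded them 32.2-fold in Prdx5 (22.0 to 48.9), a peroxiredoxin of several compartments, and 24.8-fold in Gsr (10.2 to 78.5), which regenerates glutathione. Of the list, Prdx3, Txnrd2, Pgd, Tkt, Prdx5 and Gsr were named after their values had been seen. Against B lymphocytes 9 of 13 were higher (33.8% of all genes) and 3 lower (16.3% of all genes). Against T lymphocytes 7 of 16 were higher (28.8% of all genes) and 4 lower (22.5% of all genes). With scran factors both became 10 higher and 0 lower, with TMM factors 10 and 1 and 10 and 2, and per ERCC UMI 10 and 0 and 9 and 2. With the most abundant transcripts out of the total, the split against T lymphocytes was 9 and 3. The median log2 ratio of all genes rose under the first 3 of these scalings too, from 0.35 to between 1.06 and 1.56 against B lymphocytes and from 0.02 to between 0.80 and 0.87 against T lymphocytes.

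The antioxidant response element, the site bound by NRF2 with a small Maf partner, was looked for in RefSeq promoters (GRCm38.p6, 250 bases before to 50 after each start) as its core TGACNNNGC on either strand. RefSeq held promoters for 9 of the 10 genes. The core was in 3 of their 15 promoters, those of Prdx1, Txnrd1 and Sod1, and in 12.4% of all 32851. The matches lay 133, 92 and 56 bases before a RefSeq start and all 3 were on the strand opposite the gene, so the complement of the core is in capitals, at chr4:116685456-116685484, chr10:82859104-82859132 and chr16:90220696-90220724, read on the plus strand.
Prdx1: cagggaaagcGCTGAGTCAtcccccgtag
Txnrd1: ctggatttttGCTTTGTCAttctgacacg
Sod1: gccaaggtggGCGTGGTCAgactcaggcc
Of these, Sod1 was highest in erythroblasts and Txnrd1 in progenitor/stem cells. The GATA letters AGATAA, read on either strand, were in 0 of the 15 promoters (11.2% of all) and TGATAA in 2 of the 15, both of Gpx4 (9.05% of all). These 2 promoters overlap and hold the same match, so by gene it was 1 of 9, where 10.4% of all genes had it. Such matches are letters in a window and not sites of binding.

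For each member with 100 UMIs or more, the genes most alike in pattern were those with the smallest root mean square difference of log2(CPM + 10), centred over the 5 populations, among 1912 or 1913 genes with 200 UMIs or more. Blvrb was close to Hba-ps4 (0.41) and Hemgn (0.46). Prdx2 was closest to Odc1, Urod and Ift140 (0.14 to 0.23), Gclc to Slc16a1, Uhrf1 and Pcna (0.33 each), and Gpx1 to Kif15, Neil3 and E2f8 (0.23 to 0.37). Gpx4 was closest to Ndufb9, its own copy Gpx4-ps2 and Dynll1 (0.16 to 0.19), and Sod1 to Fbxo9, Nucb1 and Bag1 (0.19 to 0.20). Txn1 was closest to Golim4, Mafg and its copy Txn-ps1 (0.12 to 0.16), Txnrd1 to Calr, Gm8662 and Gm19810 (0.06 to 0.11) and Cat to Tial1, Eif3d and Cnot6 (0.12 to 0.15). The likeness is over 5 values, 1 per population.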

How the data were processed

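Single cells of 5 sorted populations of 1 mouse were measured by CEL-seq2. The authors deposited UMI counts, whole numbers for each gene in each well without normalization. Per their methods, scPipe aligned the reads, assigned them to exons, demultiplexed them by the designed barcodes and collapsed UMIs. No source used here states the build, the annotation, the handling of reads that map to several places, or strand. Wells were matched to samples by plate position, leaving 9 columns with no sample unused. Symbols, positions and transcripts came from GENCODE M21 (GRCm38), and the authors may have used another build. Copies were searched with blastn 2.17.0.

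Counts were summed per population and scaled to CPM of UMIs on mouse genes, without the 74 ERCC rows. As each population is 1 sample, no test was run. Intervals are 95% exact Poisson (sums), exact binomial (shares) or exact conditional binomial (ratios), from scipy 1.17.1. A gene was called at a 2-fold CPM ratio with at least 50 UMIs in both populations together, sums under 3 UMIs being set to 3. These steps were tested on simulated counts. Also tried were scran 1.30.0 size factors, edgeR 4.0.16 TMM factors, ERCC scaling, other totals, means of single wells, thinning to 1000 UMIs, removal of wells, subtraction of a haemoglobin-scaled level, other minima and a stricter call. Adding copies and leaving out 6 B lymphocyte wells were chosen after seeing the data. Named were all members, the pathway genes with the highest and the lowest ratio of erythroblasts over progenitor/stem cells in each role, and the 3 genes most like each member, of which 1 is not reported here. The members and lists were chosen with earlier results of these data known.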

Additional observations from a re-analysis of the deposited data

How the results depend on the processing

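No ratio of a member past 2-fold turned its direction under any alternative. Of the 410 log2 ratios of members recomputed, 329 stayed within the counting interval. Members called higher than in progenitor/stem cells were 5, against 8 with scran factors. After thinning to 1000 UMIs, when 3, 4, 3 and 3 members kept 50 UMIs, 2, 3, 2 and 3 were higher than in progenitor/stem cells, granulocytes, B and T lymphocytes. The 1 member lower than in progenitor/stem cells (Txnrd1) fell to 0 with scran or TMM factors, after thinning and when the interval had to pass 2-fold. The 1 lower than in granulocytes (Txn1) fell to 0 with TMM factors, per ERCC UMI, on a total without haemoglobin, S100a8, S100a9 and Gm42418, and by interval.

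Of the pathway genes, 5 were higher than in progenitor/stem cells, against 13 (scran), 12 (TMM), 2 (thinned), 8 (at least 10 UMIs) and 9 (no minimum), and 11 were lower, against 7 (scran), 7 (TMM), 1 (thinned), 25 (at least 10 UMIs) and 25 (no minimum). Against granulocytes, 7 higher became 2 (thinned), 14 (at least 10 UMIs), 14 (no minimum) and 4 (interval), and 13 lower became 6, 24 and 24 with the first 3 of these. Against B lymphocytes, 9 higher became 2 (thinned), 14, 14 and 4 (interval), and 3 lower became 0 (scran), 1 (TMM), 0 (ERCC), 0 (thinned), 14 (at least 10 UMIs), 36 (no minimum) and 1 (interval). Against T lymphocytes, 7 higher became 2 (thinned), 11 and 11, and 4 lower became 0 (scran), 2 (TMM), 2 (ERCC), 0 (thinned), 18, 30 and 2 (interval). Fewer genes reach 50 UMIs after thinning and more are counted with a lower minimum. The cause of the other changes was not tested.

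Leaving out 23 wells under 2000 UMIs moved none of the 40 member ratios out of its interval. Neither did leaving out 8 wells, which were the 7 nearest to another population together with wells A8 and B2. Depth limits Prdx1 most, and Cat and Txnrd1 outside progenitor/stem cells and erythroblasts. Copies, overlapping genes without strand, and transcripts of other cells limit what low counts mean.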
